A study of Mus musculus with 12 samples.

Results

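Autosomal stretches of 100 kb in which H3K27me3 domains covered at least 30 percentage points more sequence at 2 months (M2) than at postnatal day 14 (P14) are described here. Each of chromosomes 1 to 19 was divided into 100 kb windows on the mm9 build, and the percentage of every window lying under deposited domains was taken at each age. Of 24129 windows, 821 met the rule. These gaining windows were chosen by their measured cover in both lists, so their cover at P14 and at M2 is a description and supports no test.

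H3K27me3 is trimethylation of lysine 27 on histone H3. It is written by Polycomb repressive complex 2, whose catalytic subunit is EZH1 or EZH2, and is associated with transcriptional silencing. The complex also binds the mark through its subunit EED, which allows methylation to extend from nucleosomes that already carry it. The mark occurs both as focal domains around CpG-rich promoters and as broad, lower blankets over inactive chromatin, and hepatocytes still change their expression programme between suckling and adulthood.

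The samples were wild-type (Wt) mouse hepatocytes, obtained by liver perfusion and low-speed pelleting and then fixed with formaldehyde. The P14 ChIP group held 4 samples, 2 male and 2 female, with 4 input samples, and the M2 ChIP group held 2 samples of unknown sex with 2 inputs. The same H3K27me3 antibody is given for both ages, and the labels call the M2 samples re-analyses of earlier deposits. One domain list served each age, so no spread between animals could be measured, and age cannot be told apart from the origin, number or sex of the pooled samples. The lists name no genes, and mm9 gene annotation was not used here, so hepatocyte identity was not checked against markers and no gene or sequence is attached to any window. The whole lists held 226035 domains at P14 and 212874 at M2, all on a 1 kb grid, and read depth is unknown.

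Most gaining windows went from sparse to intermediate cover rather than to full cover. At P14 they were covered at a median of 18% (range 1 to 64), and at M2 at a median of 55% (range 33 to 97). The median difference was 33 percentage points, with quartiles of 31 and 37. A difference of 40 points or more was found in 127 of them and one of 50 points or more in 21. Cover of 70% or more at M2 was reached by 160, and 25 started at 5% or less. Over all autosomal windows the medians were 16% at P14 and 25% at M2, so by the median the gaining windows started close to the typical level. Starts under 10% were less common among them, at 150 of the 821, against 6525 of all 24129 windows. The upper quartile at M2 was 66% in gaining windows and 42% over all autosomal windows, and the rule itself favours high M2 cover.

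The 821 windows were 3.40% of the autosomal windows, and they held 28.8 Mb, or 18.7%, of the net autosomal difference of 154.1 Mb. Of the newly covered autosomal length, before cover found only at P14 is subtracted, they held 8.75%. The rule selects large differences, so shares above 3.40% are built into it. A shift of the same size towards P14 was seen in 57 windows (0.236%). Across all autosomal windows 15127 were covered more at M2, 8060 more at P14 and 942 equally, with a median difference of 5 points. When the 30 points were counted from that median, 323 windows lay towards M2 and 110 towards P14. After removal of the shortest M2 domains to give both ages an equal covered length, the split was 249 against 117. Removal from M2 alone cannot raise the first number or lower the second. Of the 821 windows 30.3% still met the rule. Of the 20 windows and runs named here as the highest and longest, 16 still differed by 30 points or more. These were picked as extremes, and some of the windows lie inside the runs. With neighbouring domains joined across gaps of 1 kb, 1297 windows gained. No break separated the members from the other windows at the threshold. Exactly 30 points were found in 127 windows, such as chromosome 1 from 18500001 to 18600000 (9% at P14, 39% at M2), from 21400001 to 21500000 (28% and 58%), from 39800001 to 39900000 (51% and 81%), from 76700001 to 76800000 (12% and 42%) and from 118000001 to 118100000 (13% and 43%). The 149 windows just outside, at 29 points, included chromosome 1 from 5700001 to 5800000 (15% and 44%), from 43200001 to 43300000 (36% and 65%), from 105600001 to 105700000 (9% and 38%), from 113700001 to 113800000 (18% and 47%) and from 131100001 to 131200000 (36% and 65%).

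**Figure D1:**
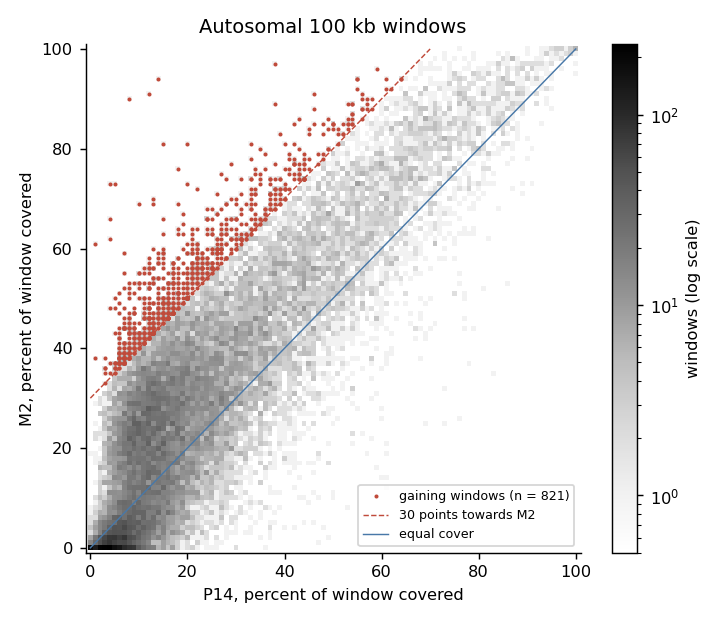
Cover of every autosomal 100 kb window at P14 (horizontal axis, percent) and at M2 (vertical axis, percent). Grey shading gives the number of windows on a log scale, and red points are the 821 gaining windows. Most of them lie just above the dashed line that marks 30 points, at P14 cover under 40%.

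The 10 highest differences fell into 6 places on chromosomes 1, 3, 5, 6 and 11, and several of these windows were neighbours. The 10th place was tied at 59 points with chromosome 5 from 132800001 to 132900000 (38% and 97%), and the tie was broken by chromosome order. On chromosome 1 from 121000001 to 121100000 cover was 8% at P14 and 90% at M2. P14 held 3 small domains there, from 121008001 to 121009000, from 121020001 to 121023000 and from 121073001 to 121077000. M2 held 5 domains, from 120978001 to 121043000, from 121044001 to 121059000, from 121062001 to 121069000, from 121073001 to 121087000 and from 121089001 to 121116000. All 8 kb of P14 cover lay inside M2 domains, and the gaps that remained at M2 were 1 to 4 kb wide. The 2 windows that follow, from 121100001 to 121200000 and from 121200001 to 121300000, went from 5% to 73% and from 15% to 81%.

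On chromosome 11 from 99300001 to 99400000 cover was 14% at P14 and 94% at M2. The 7 P14 domains were 1 to 4 kb long, and 6 of them lay between 99366001 and 99398000. At M2 the window was met by 3 domains, from 99256001 to 99302000 (46 kb), from 99303001 to 99350000 (47 kb) and from 99355001 to 99415000 (60 kb). The widest newly covered stretch of any gaining window, 42 kb, lay here. Chromosome 5 from 132900001 to 133000000 was similar in extent, with 12% at P14 in 7 pieces and 91% at M2 in 8 pieces, the longest M2 domain being 32 kb.

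On chromosome 6 from 115300001 to 115400000 most of the new cover lay apart from P14 domains. The P14 list held a single 1 kb domain there, from 115348001 to 115349000, and cover was 1%. M2 cover was 61% in 14 pieces, of which the longest belonged to a 26 kb domain from 115293001 to 115319000 and the other 13 were 1 to 7 kb long. Of the 60 kb newly covered, 54 kb lay in stretches that touched no P14 domain. The next window, from 115400001 to 115500000, went from 4% to 73% with 9 pieces at M2, and there 40 of 70 kb of new cover touched a P14 domain. Chromosome 3 from 37600001 to 37700000 went from 4% to 66%, and only 1 of its 4 kb of P14 cover was still covered at M2. Among the remaining windows of the 10, cover on chromosome 5 from 132700001 to 132800000 was 20% at P14 and 81% at M2. It was 10% and 69% on chromosome 1 from 158300001 to 158400000.

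Cover in the gaining windows was added mostly as more and somewhat longer domains of a few kb. The number of separate pieces per window had a median of 10 at P14 and 15 at M2, against 8 and 9 over all autosomal windows. It was higher at M2 in 609 gaining windows, lower in 166 and equal in 46, a split that was not counted over all autosomal windows. The longest domain that met a gaining window had a median length of 4 kb at P14 and 10 kb at M2, and the longest newly covered stretch a median of 7 kb. Over all autosomal windows these medians were 4 kb, 5 kb and 3 kb. Single 1 kb domains were 47.5% of the 8324 P14 domains that met a gaining window and 16.2% of the 11518 M2 domains. The corresponding shares over all autosomal windows were 46.6% and 24.4%. Neighbouring pieces were a median of 4 kb apart at P14 and 2 kb apart at M2, against 4 kb and 3 kb over all autosomal windows. Selection for at least 30 points more cover at M2 itself favours more or longer pieces and narrower gaps.

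Domains of 20 kb or more held a minor share of the M2 cover. An M2 domain of 20 kb or more met 144 gaining windows (17.5%), and one of 50 kb or more met 30. Over all autosomal windows 10.6% were met by an M2 domain of 20 kb or more. Such domains carried 0.907% of the P14 cover and 10.4% of the M2 cover in gaining windows, compared with 8.24% and 13.5% in all autosomal windows. By number, 15 P14 domains (0.180%) and 174 M2 domains (1.51%) that met a gaining window were this long, compared with 0.689% and 1.37% over all autosomal windows. The difference was also spread along each window. When a window was split into 10 pieces of 10 kb, a median of 9 pieces had more cover at M2, and 8 or more did so in 777 windows (94.6%). All 10 pieces had more in 217 (26.4%). The lowest number was 6, where a difference of 30 points requires at least 3. Over all autosomal windows the median was 4, with 14.7% at 8 or more pieces and 1.36% at all 10. In chromosome X windows past the same threshold the median was 10, with 98.1% at 8 or more and 59.7% at all 10. The spread was thus not particular to the autosomal windows, and a large difference itself favours it.

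Newly covered sequence was next divided by whether its unbroken stretch touched a P14 domain. In gaining windows 33.3 Mb were newly covered. Of this length 41.6% lay in stretches that touched no P14 domain, 40.8% touched one at 1 end, and 17.6% filled a gap between P14 domains. These shares were close to those over all autosomal windows (43.9%, 39.3% and 16.8%). The amount of new cover differed, at 51.9% of the sequence free of domains at P14 in gaining windows and 20.4% over all autosomal windows. The shares were not compared at a matched amount of new cover, so their closeness does not settle whether cover was added in a like way. The split changed with the treatment of short domains, which also changed which windows gained. Without domains of 1 kb, the share that touched a P14 domain was 39.4% in 1210 windows, in place of 58.4%. With lists of equal covered length it was 74.8% in 249 windows. Removing short domains alters by construction what a stretch can touch. The shares over all autosomal windows were not recomputed for these settings.

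The way cover was added varied with the level at P14. In the 150 gaining windows under 10% at P14, median cover went from 7% to 40%, the longest M2 domain had a median of 7 kb, and 70.8% of the new length touched no P14 domain. In the 283 windows at 10 to 19%, median cover went from 14% to 48% and that share was 51.6%. The 290 windows at 20 to 39% went from 26.5% to 62.0%, with 28.0% of the new length away from P14 domains. In the 98 windows at 40 to 69%, median cover went from 47.5% to 83.0%, only 10.0% of the new length touched no P14 domain, and 51.0% filled gaps between P14 domains. A denser P14 list leaves fewer places that touch no domain, so this order is in part set by the starting level. The last set was also the one in which pieces became fewer, from a median of 14 to 10, while the longest M2 domain reached a median of 27 kb. Gaining windows made up 2.30%, 3.70%, 4.87% and 3.11% of the autosomal windows at these 4 levels. None of the 841 windows that started at 70% or more was among them, and a gain of 30 points is possible there from 70% alone.

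**Figure D2:**
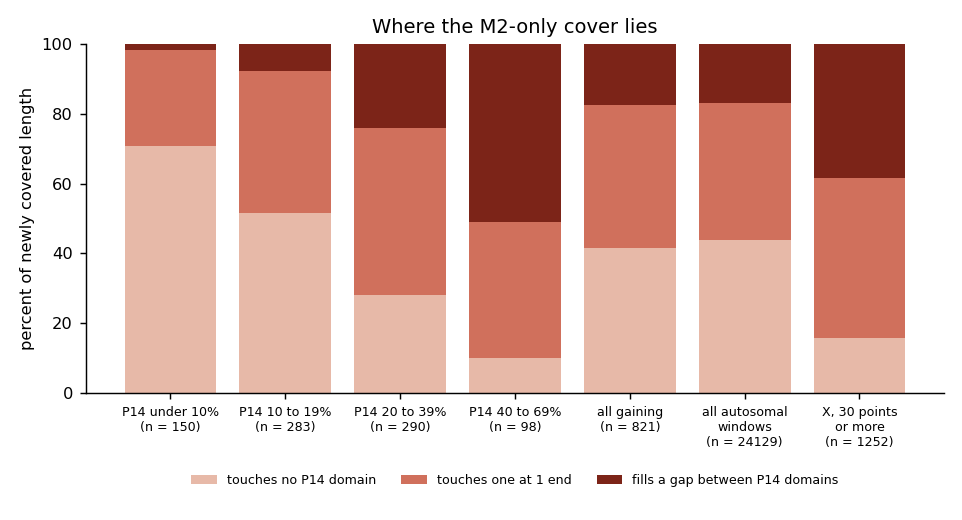
Share of the newly covered length (vertical axis, percent) that touched no P14 domain, touched one at 1 end, or filled a gap between P14 domains, in gaining windows by P14 level, in all gaining windows, in all autosomal windows and in X windows past the same threshold. From the lowest to the highest P14 level the part touching no P14 domain falls from 70.8% to 10.0%, and in X windows it is 15.7%.

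P14 cover inside the gaining windows was largely, but not wholly, present at M2. Of 17.9 Mb covered at P14, 74.3% was covered at M2, while 51.9% of the sequence free of domains at P14 was. In all autosomal windows the same shares were 58.0% and 20.4%. The high M2 cover that defines a gaining window lifts both shares. Retention followed the length of the P14 domain in the gaining windows as it did over all autosomal windows. In gaining windows it was 60.8% for 1 kb domains, 72.0% for 2 to 3 kb, 81.0% for 4 to 6 kb, 88.0% for 7 to 10 kb and 95.2% for domains over 10 kb. Over all autosomal windows the share went in the same order, from 30.9% for 1 kb domains and 46.4% for 2 to 3 kb to 89.2% for domains over 10 kb. The value for 1 kb domains was thus nearer to that of the domain-free sequence than to that of the longest domains. All P14 cover was kept in 10 gaining windows, and in 130 more of the P14 cover was lost than kept. These counts were not taken over all autosomal windows. There the median per window was 6 kb of P14 cover kept and 8 kb lost, against 12 kb and 5 kb in gaining windows. Losing more than was kept was thus no particular trait of the gaining windows.

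Gaining windows lay near one another. Of the 821, 262 (31.9%) directly adjoined another, and they formed 666 runs, of which 559 were single windows, 74 held 2 windows, 20 held 3, 11 held 4 and 2 held 5. Over all autosomal windows 6.40% had a gaining window beside them. By blocks of 1 Mb, 579 of 2424 held a gaining window, and 55 blocks with 3 or more held 190 of them. Neighbouring windows share domains that cross their border, so they are not independent observations.

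The longest runs differed in shape. Of the 11 runs of 4 windows, the 8 with the highest summed difference are described. The run on chromosome 11 from 99100001 to 99600000 was covered at 23%, 48%, 14%, 55% and 57% at P14 and at 56%, 85%, 94%, 94% and 88% at M2. Its middle window was thus the sparsest at P14 and shared the highest value at M2. The window before the run differed by -2 points (19% and 17%), and the one after it by 5 (64% and 69%). On chromosome 15 from 4100001 to 4600000 the values were 22%, 23%, 24%, 8% and 11% at P14 and 60%, 56%, 66%, 53% and 41% at M2, with differences of 16 and 19 points in the windows on either side. The difference thus tapered on both sides of that run, while on chromosome 11 it was nearly gone 1 window away.

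The run on chromosome 1 from 121000001 to 121400000 had the highest summed difference of all runs, at 257 points. Its 4 windows were covered at 8%, 5%, 15% and 21% at P14 and at 90%, 73%, 81% and 62% at M2. The window that follows, from 121400001 to 121500000, was nearly free of domains at both ages (3% and 1%), so the gain ended abruptly on that side. On chromosome 5 from 132700001 to 133100000 cover went from 20%, 38%, 12% and 34% to 81%, 97%, 91% and 72%. A second run on chromosome 5, from 117100001 to 117500000, started higher, at 45%, 49%, 46% and 38%, and reached 83%, 86%, 88% and 70%. It adjoined a window that was already at 70% at P14 and stood at 96% at M2.

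The other 5 of the 10 longest runs, on chromosomes 7, 3, 12, 16 and 18, had a lower mean cover at M2 than all but the run on chromosome 15 of those above. Mean cover over them was 10.5% to 19.5% at P14 and 49.3% to 56.5% at M2. On chromosome 7 from 14200001 to 14600000, for example, P14 cover was 11%, 12%, 6% and 13% and M2 cover 46%, 52%, 49% and 60%. The run on chromosome 18 from 30900001 to 31300000 ended at a window with 10% at P14 and 7% at M2.

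**Figure D3:**
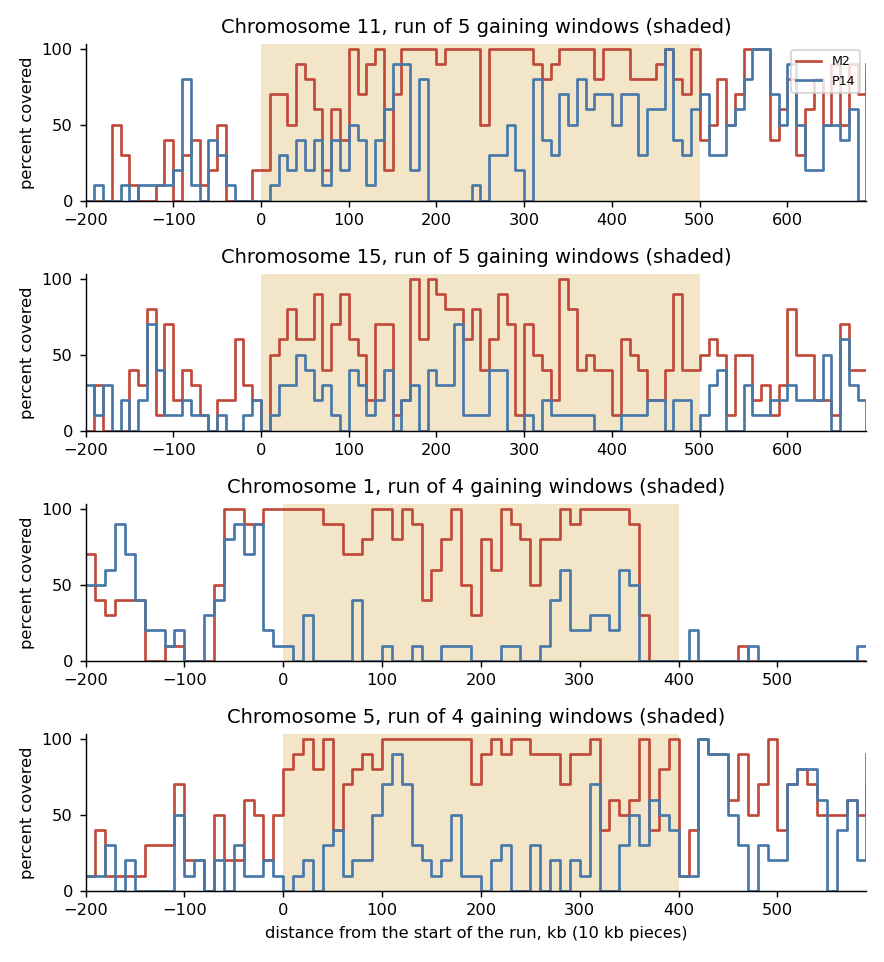
Cover at P14 (blue) and M2 (red), in percent of 10 kb pieces, along the first 4 of the longest runs of gaining windows, against distance from the start of the run in kb. Shading marks the run. In the run on chromosome 1 M2 cover drops close to the right-hand edge, while on chromosome 15 it is uneven and has no sharp edge.

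Windows beside gaining windows that did not meet the rule themselves were also covered more at M2. At a distance of 100 kb, 1641 flanking positions were found, counted once for each gaining window they adjoin, and 18.9% of them were gaining windows. The 1331 that were not had a median cover of 20% at P14 and 36% at M2, and 91.0% of them were higher at M2. Over all 23308 non-gaining windows the medians were 16% and 25%, and 61.4% were higher at M2. The mean difference in non-gaining flanks was 14.2 points at 100 kb, 11.7 at 200 kb, 8.6 at 500 kb and 6.5 at 1000 kb, against 5.4 over all non-gaining windows. Mean P14 cover of the non-gaining flanks was 24.5% at 100 kb, 21.7% at 500 kb and 20.1% at 1000 kb, against 22.4% over all non-gaining windows. The share of flanking windows that were gaining windows fell from 18.9% at 100 kb to 5.65% at 1000 kb and 3.04% at 5000 kb. These flanks come from the same pair of lists as the rule. With lists of equal covered length, the median difference in the non-gaining flanks at 100 kb was 9 points in place of 16.

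**Figure D4:**
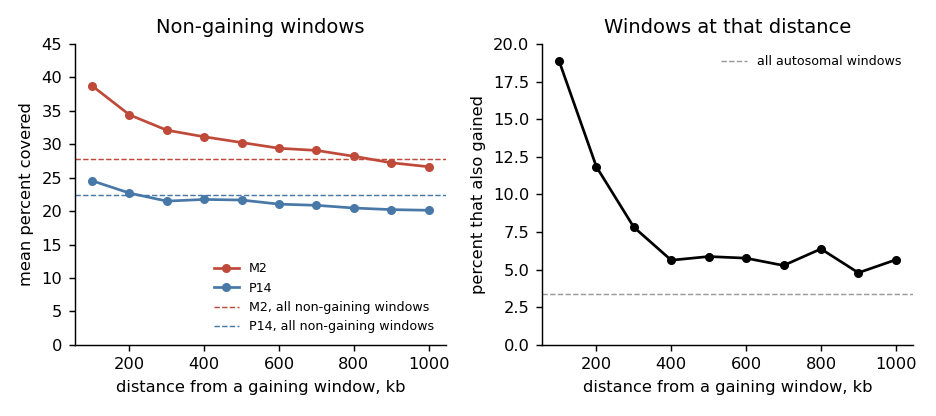
Left, mean cover (percent) at P14 and M2 of non-gaining windows against their distance from a gaining window in kb, with dashed lines at the mean of all non-gaining windows. Right, the percent of windows at each distance that were gaining windows, with the 3.40% of all autosomal windows dashed. M2 cover falls from 38.8% at 100 kb to 26.6% at 1000 kb, and P14 cover from 24.5% to 20.1%.

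Every autosome held gaining windows, in unequal number. They were 6.62% of the windows of chromosome 18 (58 windows) and 6.61% of those of chromosome 16 (63), followed by 4.95% on chromosome 5 (74). The lowest shares were 1.64% on chromosome 14 (20 windows), 1.85% on chromosome 3 (29) and 1.88% on chromosome 13 (22). Chromosome 16 also had the highest median difference over all its windows, at 9 points, and chromosome 19 the lowest, at 1. The high shares of chromosomes 18, 16 and 5 went with median differences of 7, 9 and 7 points. Chromosome 19, with the lowest median difference, nevertheless had a share of 4.12%, and chromosome 3, with a median difference of 6, one of 1.85%. The share of gaining windows thus did not follow the typical difference on every chromosome. The relation over all autosomes was not measured. Among the gaining windows of a chromosome, median cover at M2 ran from 49% on chromosome 17 to 63% on chromosome 9. The highest difference on chromosome 16 was from 19400001 to 19500000 (15% and 66%), that on chromosome 18 from 22200001 to 22300000 (7% and 55%), and that on chromosome 14 from 98600001 to 98700000 (10% and 53%).

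**Figure D5:**
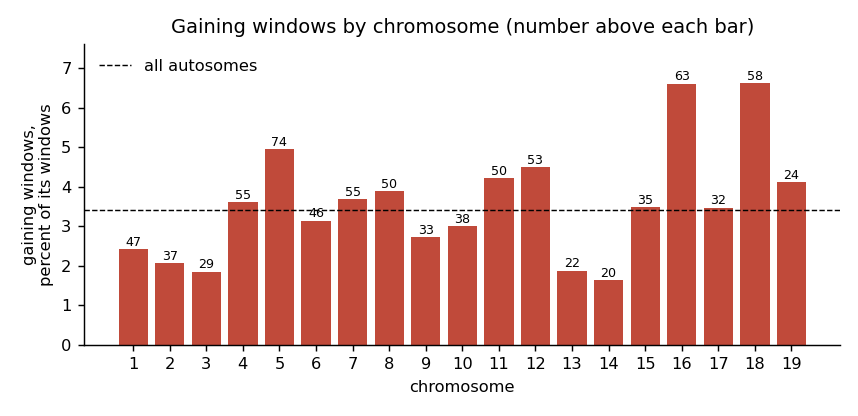
Gaining windows as a percent of the windows of each autosome (bars, from 0), with their number above each bar and the value of all autosomes, 3.40%, as a dashed line. Chromosomes 16 and 18 reach 6.61% and 6.62%, and chromosome 14 is lowest at 1.64%.

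Windows of chromosome X, dense windows and losing windows were set beside the gaining ones. On chromosome X, 1252 of 1635 windows (76.6%) passed the same threshold. They started higher, at a median of 34% at P14, and reached 82% at M2. Their pieces became fewer, from a median of 13 to 10, where those of the autosomal gaining windows went from 10 to 15. Their longest M2 domain had a median of 24 kb against 10 kb, 67.3% of them met an M2 domain of 20 kb or more against 17.5%, and 92.0% of their P14 cover was kept against 74.3%. New cover on X filled gaps between P14 domains for 38.4% of its length. Among the autosomal gaining windows, the 98 that started at 40 to 69% had the values nearest to these, with a longest M2 domain of 27 kb, 51.0% gap filling and 89.7% of P14 cover kept. Both sexes are pooled at P14 and the sex is unknown at M2, so for X age and sex cannot be told apart.

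The 761 autosomal windows covered at 70% or more at both ages differed by a median of 6 points, against 5 over all autosomal windows. Their definition leaves room for a difference of at most 30 points. Of their sequence free of domains at P14, 67.9% was covered at M2, against 51.9% in gaining windows. Both shares are in part set by the definitions, which select for M2 cover in different ways, so nothing is drawn from the contrast. M2 cover of the dense windows lay for 65.6% of its length in domains of 20 kb or more. The gaining windows that reached 70% or more at M2 numbered 160. Gaining windows adjoined a dense window in 3.53% of cases, compared with 5.43% of all autosomal windows. The second share includes the dense windows themselves, which can adjoin one another, and no gaining window was dense at both ages. The shares are thus not like for like. In the 57 windows that shifted by 30 points or more towards P14, median cover went from 49% to 12%, pieces from 13 to 4, and the longest domain from 12 kb to 4 kb. The longest P14 domain of a losing window and the longest M2 domain of a gaining window thus had similar medians, 12 kb and 10 kb. These contrasts have no replicate check and were not tested.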

How the data were processed

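H3K27me3 domains from ChIP-seq of mouse hepatocytes were analysed. The deposited lists give domain starts and ends on mm9, a score column that the authors deposited as 0 throughout, and no height or p-value. Per the submitters' processing notes, STAR 2.4.2a, bedtools and mm9 were used. How domains were called, at which threshold and with what use of input is not given in the sources used here. The list of an age was taken as pooled over the ChIP samples of that age, since all its samples name the same list.

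Lists were placed on a grid of 1 kb in Python 3.11.15, using pandas 2.3.3, numpy 2.4.6, scipy 1.17.1 (intervals used to judge alternatives) and matplotlib 3.10.9 (figures). Windows of 100 kb start at multiples of their size and lie wholly between the first and last domain of a chromosome. The 192 windows without a domain in either list were kept. Coordinates count from 1. A newly covered stretch is a run of M2-only bins, followed past the window's edge. No test was run, because each age has 1 list. The intervals are binomial and treat 1 kb bins or windows as independent, so they measure no spread between animals. Shares that stayed inside them under an alternative are not listed below. The code was tested on simulated lists.

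Windows named are the 10 highest differences (ties by chromosome and start), the 10 longest runs (ties by summed difference), the highest of the chromosomes discussed, and 5 on each side of the threshold. The members, measures and alternatives were chosen with earlier results of these data known. No mm9 gene annotation was used.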

Additional observations from a re-analysis of the deposited data

How the results depend on the processing

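The number of gaining windows, 821, became 1297 with domains within 1 kb joined, 249 with lists of equal covered length, 127 at 40 points, 3628 at 20 points, 323 at 30 points above the median difference, 3248 in 50 kb windows and 172 in 200 kb windows. Fewer or more windows at other thresholds and sizes follow from their construction. It was 1210 with domains of 2 kb or more, 857 with the longest 75% and 814 with windows shifted by 50 kb. Of the 821 windows, 780, 809, 249 and 717 remained with domains of 2 kb or more, joined domains, equal lengths and the longest 75%, and 20, 20, 16 and 20 of the 20 named windows and runs stayed at 30 points or more.

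The share adjoining another gaining window, 31.9%, was 36.5% with domains of 2 kb or more, 35.3% joined, 25.3% at equal lengths, 28.6% with shifted windows, 54.9% at 20 points, 27.6% above the median and 37.8% in 50 kb windows. The share of new length touching a P14 domain, 58.4%, was 39.4% (2 kb or more), 68.9% (joined), 74.8% (equal lengths), 51.2% (longest 75%), 61.9% (40 points), 55.0% (20 points), 59.9% (above the median), 57.2% (50 kb) and 61.0% (200 kb). The kept share of P14 cover, 74.3%, was 75.1% (2 kb or more), 75.8% (joined), 81.0% (equal lengths), 75.3% (longest 75%), 75.1% (shifted), 78.6% (40 points), 69.4% (20 points), 78.0% (above the median), 76.7% (50 kb) and 75.8% (200 kb). The median longest M2 domain, 10 kb, was 16 kb joined, 17 kb at equal lengths and 8 to 14 kb in the other settings. The median difference of non-gaining flanks, 16 points, was 9 at equal lengths and 11 to 19 in the other settings. The 57 losing windows became 117 at equal lengths, 18 at 40 points, 251 at 20 points, 110 about the median, 268 in 50 kb windows and 16 in 200 kb windows. In the other settings they numbered 46 to 80. Equal lengths were reached by removing M2 domains alone, which cannot raise the number of gaining windows or lower that of losing ones. Where no construction is named, the cause was not tested. Leaving out windows without any domain, chosen after the data were seen, changed none of these values. No paired analysis was possible because each age has 1 pooled list and no replicate columns. Read depth is unknown.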

Other observations

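Gaining windows were found along the whole length of the autosomes. When each chromosome's span was cut into 5 equal parts from its first domain, the share of gaining windows was 3.57%, 3.52%, 3.71%, 3.17% and 3.05% from the first part to the last. The 1 Mb blocks with most gaining windows held 5 each. They lay on chromosome 5 from 48000001 to 49000000 (14.0% covered at P14, 39.5% at M2) and from 117000001 to 118000000 (35.6% and 57.3%), on chromosome 11 from 92000001 to 93000000 and from 99000001 to 100000000, on chromosome 15 from 4000001 to 5000000 and on chromosome 16 from 27000001 to 28000000 (15.5% and 40.7%).

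Few gaining windows lay close to one that shifted towards P14. On the chromosomes that held any losing window, no gaining window adjoined one, and 4 of 771 (0.519%) lay within 500 kb of one. Over all autosomal windows with a losing window elsewhere on their chromosome, 0.473% (108 of 22837) adjoined one and 2.01% lay within 500 kb of one. Those shares include losing windows, except any that was the only one on its chromosome. Losing windows can adjoin one another, while no window both gained and lost. Neighbouring windows also share domains, so the comparison is not like for like. Chromosome 12, with 9 losing windows, had more of them than any other autosome and also held 53 gaining windows, whereas chromosome 8 held 50 gaining windows and no losing one.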
